A study of Mus musculus with 6 samples.

Results

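The genes described here are 10 transcription factor genes of the immediate early response in mouse blood stem and progenitor cells. They are the AP-1 genes Fos, Fosb, Jun, Junb and Jund, the zinc finger genes Egr1 and Egr2, the orphan nuclear receptor genes Nr4a1 and Nr4a2, and Atf3. The list takes some genes of these families and leaves out others, such as Fosl2, Egr3 and Nr4a3. It was chosen with earlier results of these data known, with no threshold on values. All 10 were found among 19938 genes measured, each through a single probe set with a single gene symbol. Immediate early genes are switched on within minutes of a stimulus, without new protein synthesis, when MAP kinases and calcium signals act on factors such as Srf, the Elk proteins and Creb that already sit on their promoters. Fos and Jun proteins pair through leucine zippers to form AP-1, Egr proteins bind GC-rich sites, and Nr4a receptors act without a known ligand. In blood stem cells Egr1, Nr4a1 and Nr4a2 are known as regulators of quiescence and Junb as a brake on myeloid expansion, and the same genes are also known to be induced by the handling of cells.

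Gene expression was measured on 6 Affymetrix GeneChip Mouse Gene 1.0 ST arrays, in KSL cells, the fraction that carries cKit and Sca1 and lacks lineage markers. The 3 arrays labelled DKO hold cells of mice with the genotype Runx1fl/fl;Runx3fl/fl;Mx1-Cre+, and littermates with the genotype Runx1fl/fl;Runx3fl/fl;Mx1-Cre- gave the 3 labelled WT, so the floxed alleles were common to both groups and the Cre transgene to DKO alone. The floxed and Cre lines had been backcrossed to C57BL/6 for 3 generations or more. The protocol, given alike for both groups, has 600 µg of pIpC injected on 7 alternate days from 4 weeks of age, while the sample descriptions call the cells untreated. How long after the last injection cells were taken is not stated here. Mx1-Cre is driven by an interferon-responsive promoter that is not restricted to blood cells, and pIpC, a double-stranded RNA analogue, induces it. Deletion and transgene cannot be told apart in this design. Each WT sample was pooled from 3 mice, no pooling is mentioned for DKO, and a total of 6 mice is also given, so whether n = 3 stands for single mice or pools is unsettled.

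Runx1 signal was 9.29 ± 0.08 in the arrays labelled DKO and 8.47 ± 0.08 in WT on the log2 scale (SD, n = 3), higher in all 3 DKO arrays. Runx3 signal was 7.38 ± 0.03 and 7.53 ± 0.06. A gene-level signal can include probes outside the deleted exons and then checks nothing, so DKO means labelled DKO throughout and each direction is that of the labels. Of 9 tested KSL genes 3 rose and 2 fell (55.6% passing, median 0.24, means of 8.44 to 8.69 in DKO and 8.26 to 8.46 in WT). Kit (0.73), Meis1 (0.88) and Slamf1 (1.95) rose, and Flt3 (-1.32) and Mecom (-0.67) fell. All 9 except Slamf1 lay above the array medians of 5.88 to 5.91 on every array. Slamf1 was below them in WT, at 5.72, 5.09 and 5.47. The Sca1 gene Ly6a was not analysed here. Correlations between arrays were 0.993 to 0.995 within DKO, 0.989 to 0.991 within WT and 0.976 to 0.98 between the groups.

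Promoters were searched for short motifs, among them those of sites through which such a stimulus is known to act. The stretches below are shown for Fos, Fosb and Jun, whose values varied together between arrays, and for Nr4a1 and Egr2, which varied less. They come from RefSeq on GRCm38.p6, which holds windows of 250 bases before to 50 after the start for 9 of the 10 genes, those other than Egr1. Each is written 5′ to 3′ on the strand of the gene and lies before the start. Capitals mark TGACG, the core of the site bound by Creb (CGTCA on the opposite strand), TGACNTCA, the longer form bound by Jun and Atf proteins, the box TATAAA and the CArG box of the serum response element, which Srf binds.
Fos, chr12:85473760-85473889, plus strand: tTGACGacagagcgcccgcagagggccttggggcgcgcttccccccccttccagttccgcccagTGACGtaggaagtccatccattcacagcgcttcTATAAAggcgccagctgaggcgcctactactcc
Fosb, chr7:19310046-19310175, minus strand: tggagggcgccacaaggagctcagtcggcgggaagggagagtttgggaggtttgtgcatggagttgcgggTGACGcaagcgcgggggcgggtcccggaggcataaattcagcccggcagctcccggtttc
Jun, chr4:95052223-95052352, minus strand: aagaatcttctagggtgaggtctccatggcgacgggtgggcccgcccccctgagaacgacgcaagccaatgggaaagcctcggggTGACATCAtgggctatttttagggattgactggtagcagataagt
Nr4a1, chr15:101266716-101266845, plus strand: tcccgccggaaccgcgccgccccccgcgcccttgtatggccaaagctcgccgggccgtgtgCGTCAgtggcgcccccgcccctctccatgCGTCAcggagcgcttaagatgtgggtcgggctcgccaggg
Egr2, chr10:67537793-67537822, plus strand: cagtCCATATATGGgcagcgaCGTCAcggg

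On both strands of the windows, TGACG was found for 7 genes, namely Fos, Fosb, Junb, Egr2, Nr4a1, Nr4a2 and Atf3, and in 20.8% of all 32851 RefSeq windows. Nr4a1 and Nr4a2 each hold 4 such matches. TGACNTCA was found for Jun only among the members and in 8.83% of all windows, and the CArG box for Egr2 only and in 1.63%. TATAAA was found for Fos, Junb and Nr4a2 and in 13.6% of all windows. Counted from the start, its match lay at -33 to -28 in Fos and at 0 to 5 in Junb. In Nr4a2 it lay at -164 to -159 on the opposite strand. The AP-1 site TGANTCA, the Runx core TGTGGT, the Egr site GCGTGGGCG and the Nr4a site AAAGGTCA had 0 matches in the 13 windows of the members, against 7.81%, 16.8%, 0.612% and 1.51% of all windows. Jund has a window but had no match of any of these motifs. Several windows belong to Egr2, which has alternative starts, and a TGACG match can lie within a TGACNTCA match. These are matches of letters within a short window, and sites outside it were not searched.

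Arrays labelled DKO were compared with those of the littermate controls to ask whether the immediate early genes differ in KSL cells. Egr1 fell in DKO and was the only member of the 10 to pass the test (-0.53 on the log2 scale). Its call was lost in 5 of 16 alternatives other than thresholds. Fos, Fosb and Jun differed by less than the spread among replicates of a group, with changes between arrays of the same label of up to 1.81. Nr4a1, Nr4a2 and Atf3 lay close to 0 difference. In all, 1 of 10 members fell and 0 rose, where 7.69% of all genes fell and 9.71% rose, together 17.4%, so the members' count is near the background. Calls are limma's at a Benjamini-Hochberg adjusted p under 0.05 over all 19938 genes. Of all calls 55.8% were rises, 66.8% with arrays centred on their medians and 39.6% with a trend over gene span and signal removed. In bulk samples, fewer cells of a type and less RNA per cell cannot be told apart.

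**Figure D1:**
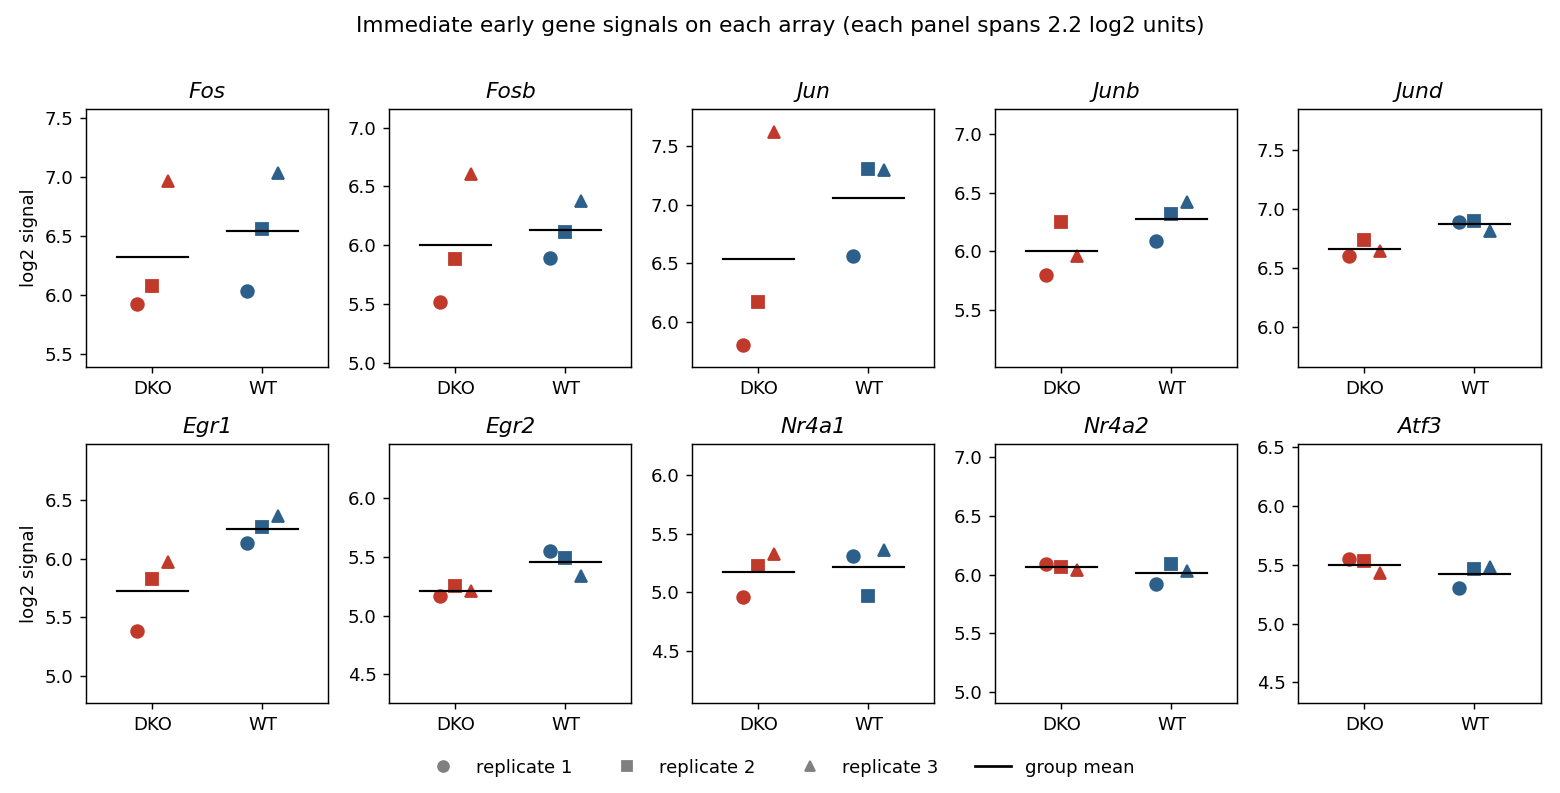
Log2 signal of each of the 10 genes on each array, with DKO (red) and WT (blue) on the horizontal axis, symbols for the replicate number and a bar for the group mean; each panel spans the same range of log2 units around its own centre. Jun, Fos and Fosb are highest in DKO replicate 3 among the DKO arrays (7.62, 6.96 and 6.60), and Egr1 is below every WT value in all 3 DKO arrays.

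Fos encodes the AP-1 subunit that cannot pair with itself and needs a Jun partner. Its log2 signal was 5.92, 6.08 and 6.96 in DKO replicates 1, 2 and 3 and 6.03, 6.56 and 7.04 in WT replicates 1, 2 and 3. DKO replicate 3 and WT replicate 3 were high, and the first replicates of both labels were low. The groups overlapped, with DKO replicate 1 below every WT array and WT replicate 3 above every DKO array. The difference was -0.22 (95% interval -0.88 to 0.43, limma adjusted p = 0.655), an interval of array signal that stays within 1 on the log2 scale on both sides. Its direction rested on single arrays, at -0.54 without DKO replicate 3 and at 0.02 without WT replicate 3.

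Fosb, its close paralog, read 5.52, 5.89 and 6.60 in DKO and 5.89, 6.11 and 6.37 in WT. DKO held both the lowest and the highest of the 6 values. The difference was -0.12 (95% interval -0.66 to 0.41, limma adjusted p = 0.77), and it was 0.12 without DKO replicate 1 and -0.43 without DKO replicate 3.

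Jun encodes the partner that binds DNA with Fos or with itself. Its signal was 5.81, 6.18 and 7.62 in DKO and 6.56, 7.30 and 7.30 in WT. DKO replicates 1 and 2 were below all WT arrays and DKO replicate 3 was above all of them. The difference was -0.52 (SE 0.4, 95% interval -1.42 to 0.38, limma adjusted p = 0.425). Without DKO replicate 3 it was -1.06 and passed (limma adjusted p = 0.0237), and without DKO replicate 1 it was -0.15 (limma adjusted p = 0.839), so a single array decides this value.

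Junb, an AP-1 subunit that can restrain Jun, read 5.80, 6.25 and 5.96 in DKO and 6.09, 6.31 and 6.42 in WT. DKO replicate 2 lay above WT replicate 1, and the other DKO arrays lay below WT. The difference was -0.27 (95% interval -0.57 to 0.03, limma adjusted p = 0.201). Jund, the most constantly expressed Jun gene and not a typical immediate early gene, read 6.61, 6.74 and 6.65 in DKO and 6.89, 6.90 and 6.82 in WT. All DKO values were below all WT values, by a small step. The difference was -0.21 (SE 0.0846, limma adjusted p = 0.125). Values of DKO and WT do not overlap in 35.8% of all genes, and in 19.6% with DKO as the lower group.

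Egr1 encodes a zinc finger factor induced by growth factors that is held to keep stem cells in their niche. Its signal was 5.38, 5.82 and 5.97 in DKO and 6.13, 6.27 and 6.36 in WT. Every DKO array was below every WT array, with DKO replicate 1 the lowest. The fall was 0.53 on the log2 scale, or 1.44-fold (5.73 ± 0.30 against 6.25 ± 0.11, SD, n = 3, 95% interval -0.85 to -0.20, limma adjusted p = 0.0335), and 14.5% of all genes had a smaller p. The call was lost without DKO replicate 1 (-0.36, limma adjusted p = 0.0842), DKO replicate 2 (0.0628), WT replicate 2 (0.0706) or WT replicate 3 (0.102) and with cyclic loess normalisation (0.0535), in a range of 0.0127 to 0.102. Its direction was kept in all 16 alternatives that tested it.

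Egr2, the related factor known from myelination and lymphocytes, read 5.17, 5.26 and 5.21 in DKO and 5.55, 5.49 and 5.34 in WT. The groups did not overlap and the arrays of each were close to one another. The difference of -0.25 (SE 0.0899, 95% interval -0.45 to -0.05) missed the threshold (limma adjusted p = 0.0901). Jund, Egr1 and Egr2 were thus the 3 members whose groups did not overlap, all with DKO lower. Such a lack of overlap is common, as it was found in 35.8% of all genes and in 19.6% with DKO lower.

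Nr4a1, also called Nur77, read 4.96, 5.23 and 5.33 in DKO and 5.31, 4.97 and 5.36 in WT. The low arrays were DKO replicate 1 and WT replicate 2, and the groups overlapped. The difference was -0.04 (95% interval -0.34 to 0.26, limma adjusted p = 0.87), with the sign turning under median centring (0.0057) and cyclic loess (0.02). Nr4a2, or Nurr1, read 6.09, 6.07 and 6.04 in DKO and 5.92, 6.09 and 6.04 in WT, a difference of 0.05 (95% interval -0.14 to 0.24, limma adjusted p = 0.736). For both receptors the 95% intervals of the array signal reach no further than 0.34 on the log2 scale, which does not bound a change in RNA.

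Atf3, a stress-induced factor that binds the same sites as Creb and AP-1, read 5.55, 5.53 and 5.43 in DKO and 5.30, 5.47 and 5.49 in WT. The groups overlapped. The difference was 0.08 (95% interval -0.12 to 0.29, limma adjusted p = 0.581). All 60 values of the members lay above the lower quartile of their array (4.63 to 4.66), and those of Nr4a1, Egr2 and Atf3 lay below the array medians, where array signals are known to understate a change in RNA. Some values of Egr1, Fosb, Jun and Junb were below the medians as well, those of Egr1 in DKO replicates 1 and 2.

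Of the 10 members 8 had a negative difference, as did 57.9% of all genes. The median over the members was -0.22, beside -0.04 over all genes, and it ranged from -0.25 to -0.09 over the 6 fits that leave out a single array. The negative members were 7 with median centring, with cyclic loess or without WT replicate 1, where Nr4a1 turned, and 6 without DKO replicate 1 or without WT replicate 3. The 5th and 95th percentiles over all genes were -0.43 and 0.55, and Jun and Egr1 were the members outside them.

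**Figure D2:**
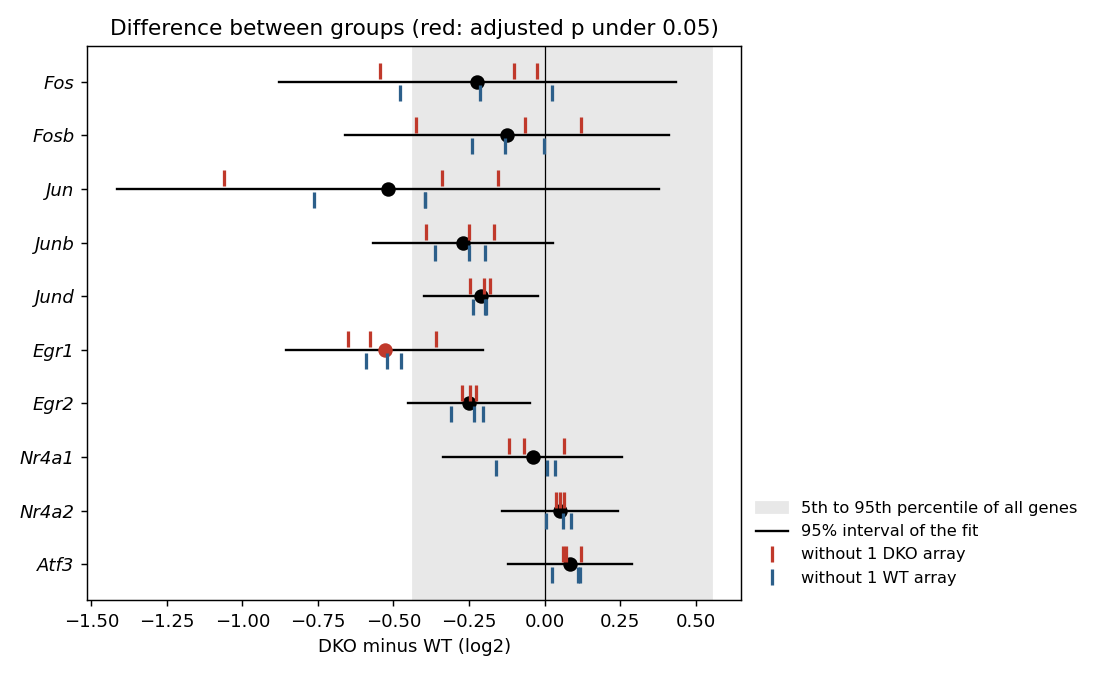
DKO minus WT on the log2 scale (horizontal axis) for each gene, as a point with the 95% interval of the limma fit, with short ticks for the fits that leave out a DKO array (red) or a WT array (blue) and a grey band for the 5th to 95th percentiles of all genes (-0.43 to 0.55). Egr1, in red, is the single call, and the ticks of Jun run from -1.06 to -0.15.

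The members' largest differences lay between arrays of the same group. Jun was 1.81 higher in DKO replicate 3 than in DKO replicate 1, the largest such difference of all 19938 genes. The contrast of replicates 3 and 1 was not a planned comparison. It follows the extremes of the members' own values, so its ranks are descriptive and test nothing. Fosb, at 1.09, had 6 genes above it, and Fos, at 1.04, had 10. Egr1 (0.58) had 89 and Nr4a1 (0.37) had 540, whereas Junb (0.16), Jund (0.04), Egr2 (0.04), Nr4a2 (-0.05) and Atf3 (-0.12) lay among ordinary genes. The median over all genes was 0.01. The pooled SD within groups was 0.741 for Jun, 0.533 for Fos and 0.427 for Fosb, beside a median of 0.124, and 0.0451%, 0.271% and 0.667% of all genes had a larger one.

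The genes around Jun, Fosb and Fos in that order include 2 further products of the immediate early response, chosen here after their values were seen. Dusp1, a phosphatase that switches MAP kinases off, read 7.36, 7.64 and 8.44 in DKO and 7.41, 7.66 and 7.78 in WT. It was 1.08 higher in DKO replicate 3 than in DKO replicate 1, the 8th largest difference. Zfp36, or tristetraprolin, which promotes decay of AU-rich messages, read 7.22, 7.85 and 8.24 in DKO and 7.02, 7.15 and 7.55 in WT and was 13th, at 1.02. Neither passed between the groups (limma adjusted p = 0.622 for Dusp1 and 0.152 for Zfp36). The order also held the small RNA genes Snord118 and Rnu12 and the lymphoid gene Dntt, at 1.51, 1.25 and 1.24.

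WT arrays differed in some of the same genes. Fos was 1.01 higher in WT replicate 3 than in WT replicate 1, with 33 genes above it, Jun 0.73 with 112 and Fosb 0.48 with 516, while Egr1 was 0.23 higher with 2877 above it. Replicate 1 was the lowest and replicate 3 the highest of both groups for 3 of 10 members, Fos, Fosb and Egr1, beside 2.51% of all genes. This order, too, was read from the members' values, so the shares are descriptive only. Over the 10 members the mean signal was 5.68, 5.90 and 6.18 in DKO replicates 1, 2 and 3 and 5.97, 6.15 and 6.25 in WT. Replicate numbers are used as names only here, and no label links a DKO sample with the WT sample of the same number.

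**Figure D3:**
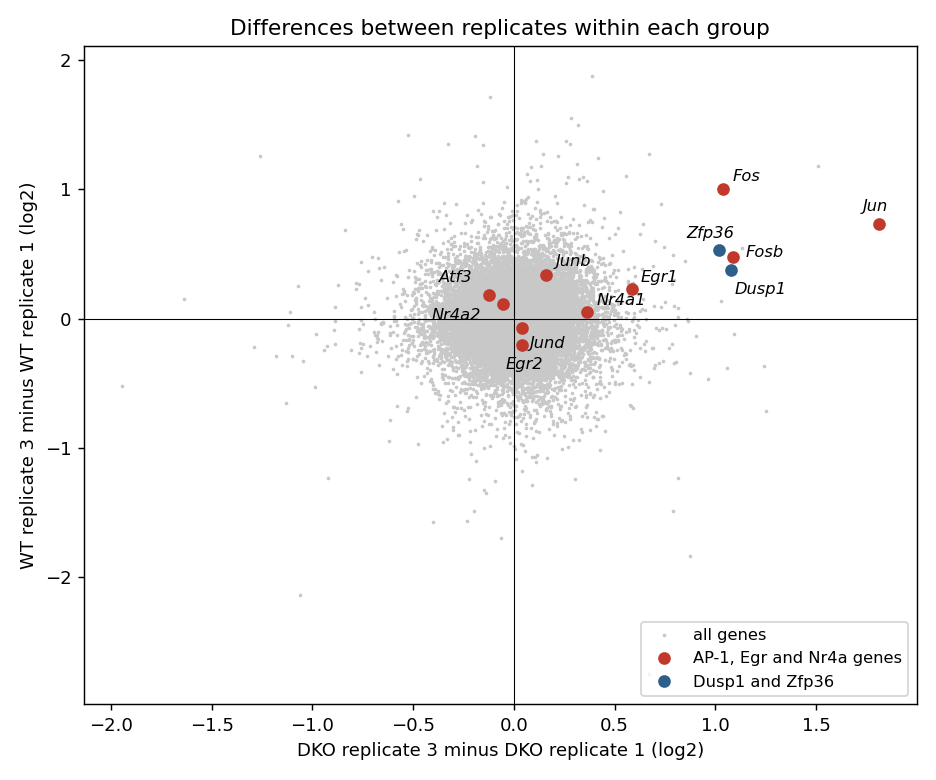
Log2 difference between replicates 3 and 1 of DKO (horizontal axis) and of WT (vertical axis) for all 19938 genes (grey), the 10 members (red) and Dusp1 and Zfp36 (blue). Jun lies farthest right of all genes at 1.81, Fos, Fosb, Dusp1 and Zfp36 stand at 1.02 to 1.09, and Jund, Egr2, Nr4a2 and Atf3 lie within the grey cloud.

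Means of other lists over the same arrays were as follows. The 48 other immediate early genes had means of 6.40, 6.56 and 6.52 in DKO replicates 1, 2 and 3, highest in DKO replicate 2. In WT replicates 1, 2 and 3 their means were 6.43, 6.34 and 6.45. Their median difference between DKO replicates 3 and 1 was 0.09. Heat shock genes had mean signals of 8.75, 8.75 and 8.70 in DKO replicates 1, 2 and 3 and of 8.76, 9.06 and 8.72 in WT. Markers of neutrophils and monocytes, cells known to express Fos and Egr1, had means of 5.48, 5.45 and 5.45 in DKO and 5.59, 5.54 and 5.94 in WT, where WT replicate 3 was high. The neutrophil gene S100a9 was 6.28 in WT replicate 1, 6.74 in WT replicate 2 and 1.72 higher in WT replicate 3 than in WT replicate 1. Of 9 such markers 0 passed between the groups (median -0.23), and Ly6g and Ltf were under the lower quartile on all 6 arrays. B cell markers had means of 5.28 to 5.51 in DKO and 5.61 to 5.82 in WT, with 1 of 7 lower. Erythroid markers had means of 6.14 to 6.49 and 6.62 to 6.92, with 2 of 5 lower. Mast cell and basophil markers had means of 6.64 to 6.67 in DKO and 5.92 to 6.25 in WT, with 3 of 7 higher and 3 lower. Platelet markers had 3 of 6 higher (means 7.04 to 7.66 and 6.70 to 6.96). T and NK cell (4.39 to 4.53 and 4.40 to 4.63) and macrophage and dendritic cell markers (5.33 to 5.43 and 5.43 to 5.51) had 0 of 7 and 0 of 8 passing, and endothelial and stromal markers had 1 of 8 lower (5.71 to 5.74 and 5.69 to 5.76). The part of these cells, or of the handling of cells, in the differences of Egr1 or of Fos and Jun was not tested.

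Profiles most like those of 3 members were sought by the root mean square difference over the 6 arrays, each gene centred on its own mean. Nearest to Fos was Fosb (0.174), followed by Olfr47 (0.191) and Elfn2 (0.218). Nearest to Egr1 were Smim27 (0.0917), Frmd6 (0.0954) and the oxygen sensor gene Egln3 (0.0985). Nearest to Nr4a1 were Mir151 (0.0351), Olfr316 (0.0364) and Epop (0.0382), where the small amplitude of Nr4a1 makes many genes lie close. All 6 arrays, both groups included, enter this measure.

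Most relatives and partners of the members did not pass. Of 20 such genes 1 rose, 2 fell and 17 did not pass (15% passing, median -0.07). Atf2, a leucine zipper factor that pairs with Jun, rose by 0.51 (8.85, 8.94 and 8.86 against 8.56, 8.36 and 8.20, limma adjusted p = 0.00992), with the call lost when the trend over span and signal was removed (0.22, adjusted p = 0.207). Jdp2, a repressor that pairs with Jun, fell by 0.45 (6.32, 6.48 and 6.19 against 6.71, 6.81 and 6.82, limma adjusted p = 0.0127) and missed the threshold without DKO replicate 3 (0.056). Batf, an AP-1 factor of lymphocytes, fell by 0.43 (limma adjusted p = 0.0298), a call lost without DKO replicate 1 or 3, without WT replicate 2 and with median centring. Atf1, a close relative of Creb, differed by 0.37 (limma adjusted p = 0.0506). Fits without a single array gave 0 (DKO replicate 3), 1 (DKO replicate 1 or WT replicate 2) and 4 falls (WT replicate 1), and 2 rises without DKO replicate 2. Median centring gave 3 rises and 1 fall, and removal of the span and signal trend 0 rises and 2 falls.

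Other immediate early genes moved in both directions. Of 48 measured, 7 rose, 5 fell and 36 did not pass (25% passing, median 0.02). Tiparp, an ADP-ribosyltransferase, rose by 0.76 (7.89, 7.68 and 7.76 against 7.07, 7.07 and 6.91, limma adjusted p = 0.000821). The zinc finger gene Klf6 rose by 0.74 (7.04, 7.15 and 7.17 against 6.22, 6.28 and 6.66, adjusted p = 0.00351). The antiproliferative gene Btg2 rose by 0.64 (mean 7.91 ± 0.15 against 7.27 ± 0.19, SD, n = 3, limma adjusted p = 0.00625), and Ifrd1 by 0.58 (adjusted p = 0.00265). These 4 calls were kept in all 17 alternatives. The remaining rises, named after their values were seen, were Gem (1.07, limma adjusted p = 0.0137), Phlda1 (0.76, 0.00948) and Zfp36l1 (0.40, 0.0161). The falls, named after their values were seen, were Id2 (-0.53), an inhibitor of E proteins, Klf2 (-0.40), Nfkbia (-0.36), an inhibitor of NF-kappaB, Ccn1 (-0.35) and Socs3 (-0.35), an inhibitor of cytokine signals. Falls numbered 1 without DKO replicate 3 and 2 without DKO replicate 1 or 2 or WT replicate 1, and 3 with median centring, with cyclic loess or after removal of the span and signal trend.

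**Figure D4:**
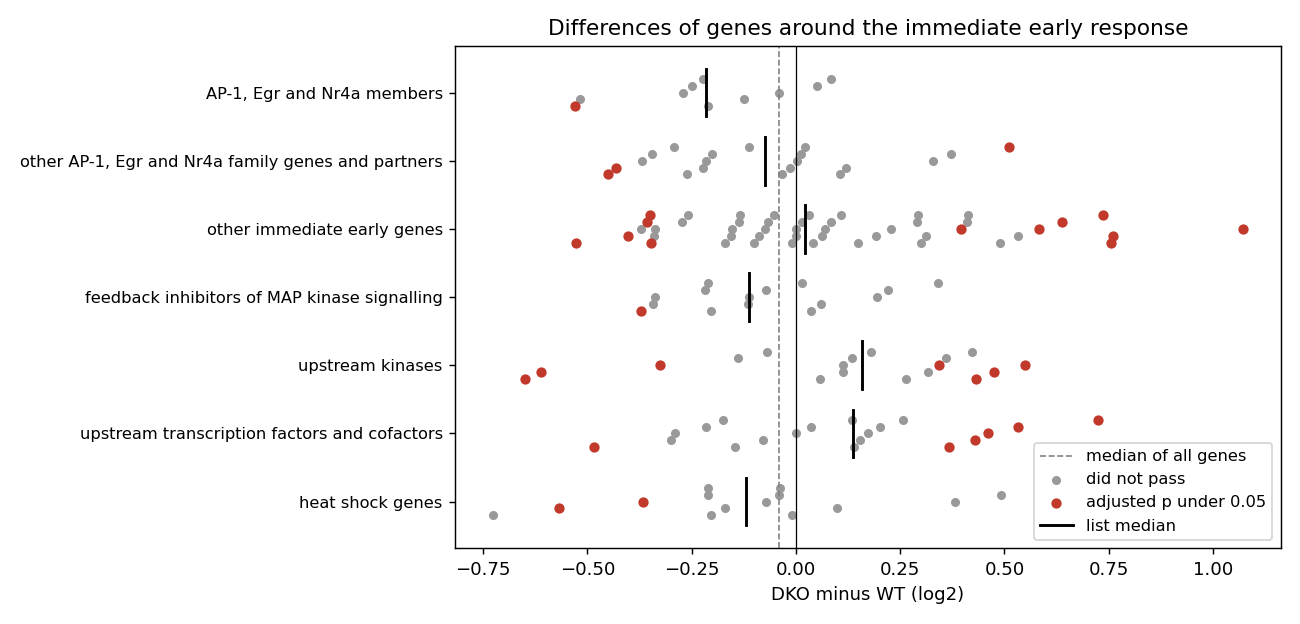
DKO minus WT on the log2 scale (horizontal axis) of each gene in 7 lists (rows), with genes past the threshold in red, others in grey, a black bar for the list median and a dashed line for the median of all genes (-0.04). The members' median is -0.22 with 1 call, and the other immediate early genes spread from -0.53 to 1.07 around a median of 0.02.

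Inhibitors that close the MAP kinase signal had 1 fall and 0 rises of 15 (6.67% passing, median -0.11). Spry2, a Sprouty protein, fell by 0.37 (6.14, 6.41 and 6.43 against 6.84, 6.60 and 6.66, limma adjusted p = 0.0456). Its call was lost in 9 of 17 alternatives, among them each fit without a DKO array and those without WT replicate 1 or 3. Dusp16 (-0.34, limma adjusted p = 0.0683), Dusp6 (-0.34, 0.0914) and Spry1 (-0.20, 0.122) did not pass. The fall was also lost, leaving 0, with median centring, with cyclic loess or after removal of the span and signal trend.

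Kinases upstream of the response had 4 rises and 3 falls of 18 measured, with 7 of 25 listed not analysed here (38.9% passing, median 0.16). Akt1 fell by 0.65 (7.04, 6.89 and 6.99 against 7.73, 7.46 and 7.68, limma adjusted p = 0.00241). Mapkapk2, a kinase downstream of p38, fell by 0.61 (7.68, 7.42 and 7.79 against 8.36, 8.14 and 8.24, limma adjusted p = 0.00594), and both calls were kept in all 17 alternatives. Mapk8, or Jnk1, which phosphorylates Jun, rose by 0.47 (limma adjusted p = 0.0127), and Rps6ka5, or Msk1, which phosphorylates Creb and histone H3, rose by 0.55 (limma adjusted p = 0.0161). Both were lost after removal of the span and signal trend (0.23 and 0.32, adjusted p = 0.17 and 0.124) and without DKO replicate 3, and Rps6ka5 also without DKO replicate 2. Rises numbered 2 without DKO replicate 1 or WT replicate 3, 1 without DKO replicate 2 and 0 without DKO replicate 3, and 2 with quantile normalisation or cyclic loess and 0 after removal of the span and signal trend.

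Transcription factors and cofactors listed as upstream of the response had 5 rises and 1 fall of 20 (30% passing, median 0.14). This balance depended on the scaling, with 2 rises and 2 falls under quantile normalisation or cyclic loess and 1 rise and 3 falls after removal of the span and signal trend. Ep300, the histone acetyltransferase recruited by Creb and Elk1, rose by 0.72 (8.89, 8.96 and 8.97 against 8.26, 8.17 and 8.22, limma adjusted p = 0.000522), and by 0.44 after removal of the span and signal trend. Mef2a, which activates Jun and Nr4a1, rose by 0.53 (limma adjusted p = 0.0046), at 0.22 with that trend removed (adjusted p = 0.159). Elk4, an Srf partner, rose by 0.46 (limma adjusted p = 0.0165), lost in 7 of 17 alternatives including each fit without a DKO array and that without WT replicate 3. Tcf3 fell by 0.48 (limma adjusted p = 0.017), lost without DKO replicate 1 or 3 or WT replicate 3. Whether Tcf3 or the others listed act on the members' promoters in these cells was not tested. Srf itself read 6.20, 6.22 and 6.30 in DKO and 6.28, 6.56 and 6.53 in WT and did not pass (limma adjusted p = 0.173). Rises numbered 2 without DKO replicate 2 or 3 and 3 without DKO replicate 1 or WT replicate 1 or 3, and falls numbered 0 without DKO replicate 1 or 3 or WT replicate 3 and 2 without WT replicate 2.

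Heat shock genes had 2 falls and 0 rises of 14 (14.3% passing, median -0.12). Hsf2, a heat shock factor, fell by 0.57 (5.97, 6.05 and 6.07 against 6.96, 6.50 and 6.34, limma adjusted p = 0.0259), a call lost without any single DKO array. Hspa1a, whose signal cannot be fully separated from that of its near-identical copy Hspa1b, fell by 0.37 (limma adjusted p = 0.0435), lost in 8 of 16 alternatives, among them each fit without a DKO array and those without WT replicate 2 or 3. Hsph1 (-0.73, limma adjusted p = 0.0846) read 9.40 in WT replicate 2 and 8.21 and 8.41 in the other WT arrays. Dnajb4 differed by 0.38 (limma adjusted p = 0.0809).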

How the data were processed

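The authors deposited log2 signals per gene-level probe set for 6 arrays. They named the RMA gene-level default in the sample titles, whereas the design text names preliminary MAS 5.0 normalisation, and Affymetrix Expression Console 1.0 appears in the submitters' processing notes. The values ran from 1.25 to 13.7 with nearly equal medians, as log2 RMA values do. No source used here gives the annotation version or the build. Gene symbols came from GEO's platform annotation. Of 35556 probe sets 21789 had 1 symbol, 1621 several and 12146 none; those with 1 were kept, and per gene the probe set with the highest mean, giving 19938 genes, of which 19856 matched the RefSeq table of GRCm38.p6 by Entrez number.

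Groups came from the labels. DKO minus WT was fitted with limma 3.58.1 in R 4.3.3 (lmFit, eBayes, two-sided, 4 residual and 5.52 prior degrees of freedom, Benjamini-Hochberg adjustment over all genes). Intervals are those of the fit. The labels call the samples biological replicates, and the number of arrays limits precision. An exact permutation test of 3 against 3 cannot go below 0.1 and was not used. The fit was checked on data simulated for DKO minus WT with 19938 genes, of which 200 changed: it found 100% of log2 changes of 1 and 61% of those of 0.5, beside 12 unchanged genes.

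The members and lists were chosen with earlier results of these data known. Genes named beyond the members are the 4 of each list with the smallest p, the 3 profiles nearest to Fos, Egr1 and Nr4a1, and Runx1 and Runx3; others are said to be chosen after their values were seen or serve as markers. Srf, S100a9, Hspa1b, Snord118, Rnu12 and Dntt were also named after their values were seen. Alternatives were other normalisations, filters on dim genes, probe set choices, variance models, the replicate number as a block, removal of a loess trend over gene span and signal, other thresholds and leaving out each array.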

Additional observations from a re-analysis of the deposited data

How the results depend on the processing

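Over 17 alternatives other than thresholds, 153 of 166 values of the 10 members kept their direction and their side of the threshold, 5 calls of Egr1 were lost, Jun passed without DKO replicate 3, and 7 values close to 0 changed sign. Those were Nr4a1 (0.0057 with median centring, 0.018 with cyclic loess and -0.16 to 0.066 over the fits without a single array), Fosb (-0.43 to 0.12 over those fits) and Fos (-0.54 to 0.025). For 26 other named genes 385 of 439 values kept both, 42 lost and 12 gained a call, and 0 changed sign.

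The count of members that fell was 0 with cyclic loess and 0 without the dimmest 50% of genes, which removes Egr1, 0 at an adjusted p under 0.01, 2 at 0.1 and 0 to 2 over the fits without a single array (0 without DKO replicate 1 or 2 or WT replicate 2 or 3, 2 without DKO replicate 3). Over all genes 1936 rose and 1533 fell. These counts were 1250 to 1868 and 843 to 1388 over the fits without a single array, lowest without DKO replicate 3 and DKO replicate 1, 1058 and 588 at 0.01, and 1201 genes rose after removal of the span and signal trend. The cause of these shifts was not tested, apart from the smaller number of genes or arrays that some settings use.

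With the replicate block, 1772 genes rose and 1272 fell, and the adjusted p of Egr1 was 0.0127. Deviations of same-numbered samples from their group means correlated at -0.00874, -0.0954 and -0.0419 over all genes, and no sample correlated best with its own number. Correlations over all genes cannot show a link that touches few genes, so whether the numbers pair the samples was not settled. Signal over background limits Nr4a1, Egr2 and Atf3 most, whose values lay below the array medians. Egr1 shares this limit in part, at 5.38 and 5.82 in DKO replicates 1 and 2, below the medians of those arrays.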
